A study of Mus musculus with 16 samples.

Results

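The comparison covers the late end of a serum course against its start in mouse 3T9 fibroblasts, with 4 small RNA libraries on each side. Its members are the libraries of 10 h and 12 h of serum (the late side) and of 0 h and 1 h (the early side), chosen by time alone, and they make up 8 of the 16 libraries of the series. 3T9 is an immortalised line grown from mouse embryo fibroblasts. The cells were kept without serum for 72 h, which brings them to rest, and were then given complete medium with 10% fetal bovine serum. All 8 libraries share this line and this starvation, so the 0 h libraries are starved cells and the 1 h libraries are cells early in their response. Each time has 2 libraries, from 2 independent biological experiments per the series' design text, so the 4 libraries of a side come from 2 experiments. No unstimulated culture held for as long was analysed here, so hours of serum and hours in culture cannot be told apart. The question was which moderate changes of abundant guide miRNAs can be called when neighbouring times are joined to 4 libraries a side, where 2 a side leave them uncalled.

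A microRNA (miRNA) is cut from a hairpin precursor, and 1 strand of the resulting duplex, the guide, is loaded into an Argonaute protein while the other, the passenger, is mostly lost. The guide pairs with target messages mainly through its seed, the bases from position 2 to position 8 counted from the 5′ end, so guides with the same seed share many targets. Most mature miRNAs are long-lived, and growth signals are known to raise some, such as miR-21 and miR-221/222, in fibroblasts and other cells.

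Mature sequences were matched by name to the RefSeq miRNA annotation of GRCm38.p6, which held 333 of the 402 tested miRNAs and 51 of the 55 abundant guides defined below. They are written 5′ to 3′ with the seed in capitals. The first set shows guides of 6 seed families in which guides with 1 seed received different calls or changed by different amounts.
let-7f-5p: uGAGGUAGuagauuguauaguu
let-7i-5p: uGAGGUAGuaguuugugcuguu
let-7b-5p: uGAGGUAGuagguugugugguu
miR-125a-5p: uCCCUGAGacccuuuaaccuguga
miR-125b-5p: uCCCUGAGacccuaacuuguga
miR-351-5p: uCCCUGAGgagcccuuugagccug
miR-92a-3p: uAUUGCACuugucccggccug
miR-25-3p: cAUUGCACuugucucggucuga
miR-221-3p: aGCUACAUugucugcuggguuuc
miR-222-3p: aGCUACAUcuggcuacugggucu
miR-30a-5p: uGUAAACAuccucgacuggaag
miR-30c-5p: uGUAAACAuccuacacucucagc
miR-26a-5p: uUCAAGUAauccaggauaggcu
miR-26b-5p: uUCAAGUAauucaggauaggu

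The second set shows the most abundant guide, 3 guides that rose by amounts from 0.39 to 0.67 on the log2 scale, and 2 guides called with 4 libraries a side and with none of the pairs of times. The third of that kind, miR-151-3p, is named without its sequence.
miR-22-3p: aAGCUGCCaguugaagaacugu
miR-21a-5p: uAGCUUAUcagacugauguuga
miR-29a-3p: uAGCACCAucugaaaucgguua
miR-31-5p: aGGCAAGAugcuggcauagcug
miR-181a-5p: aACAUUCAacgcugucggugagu
miR-130a-3p: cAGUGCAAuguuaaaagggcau

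The 8 libraries held 6378021 to 7280548 miRNA reads, and a count of 0 leaves room for at most 0.412 to 0.470 CPM, taken as 3 counts. CPM are reads per library after scaling every total to the same size. The 5 miRNAs with the most reads took 50.3% to 55.2% of each library. Counting limits of this kind leave out all other error, since the reads carry no molecular identifiers. The libraries of a pair of replicates differed by more than counting noise, with chi-square values per degree of freedom of 71.0 for 0 h, 69.4 for 1 h, 372 for 10 h and 151 for 12 h. The 10 h library of replicate 2 stood apart from the other late libraries in several abundant guides. For moderate guides (defined below), the calls it touches are given with and without it. For other miRNAs they are not always given. The TMM scaling factors, which adjust library totals for composition, were 1.03 to 1.09 in the early libraries and 0.921 to 0.987 in the late ones, so the scaling itself differed between the sides. Where unscaled totals end the call of an abundant guide (defined below), this is stated. For other called miRNAs it is not always given. The mesenchymal markers (miR-143-3p, miR-145a-5p, miR-199a-3p, miR-199a-5p, miR-214-3p and miR-152-3p) summed to 144767 to 160360 CPM in the early libraries and 126643 to 173020 CPM in the late ones. Of these 6, 2 were lower late and none higher, where 33.3% of all 402 miRNAs tested were called and 16.9% were lower. Blood markers summed to 2.99 to 3.61 CPM early and 3.19 to 4.09 CPM late with miR-142a-3p at 0 in all 8 libraries, muscle markers to 0.976 to 1.60 and 1.67 to 2.71 CPM, and pluripotency markers to at most 0.407 CPM. Epithelial markers summed to 99.4 to 126 CPM early and 65.5 to 140.0 CPM late, neural markers to 6.41 to 7.73 and 4.20 to 6.38 CPM, and liver and gut markers to 720.1 to 778 and 687 to 897 CPM. The deposited counts listed 4 of the 8 pluripotency markers, 5 of the 6 blood markers and 3 of the 4 neural markers. The sums cover only these. In bulk RNA, a shift in the share of cells that make a miRNA and a shift in its amount per cell cannot be told apart.

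Of 402 miRNAs tested, 134 passed (33.3%), 66 of them higher late (16.4%) and 68 lower (16.9%). Calls come from the quasi-likelihood F-test of edgeR with the replicate number as a block and Benjamini-Hochberg adjustment at 0.05, and every adjusted p below comes from it unless another is named. At an unadjusted p under 0.05 the count was 172. A miRNA counts here as an abundant guide if it was the more abundant arm of its hairpin and averaged at least 1000 CPM over the 8 libraries. There were 55 abundant guides, which held 95.6% of the reads on average. Of these, 22 passed (40.0%, against 33.3% of all miRNAs tested), 15 higher and 7 lower. A called change of under 1 log2 unit is termed moderate, and 19 of the 22 were of that size, 14 higher and 5 lower. The median log2 change was -0.01 over all miRNAs tested and 0.07 over the abundant guides.

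The moderate changes fell between 0.21 and 0.84 in size with a median of 0.35, while the 109 called miRNAs under 1000 CPM had a median size of 0.71. Moderate changes are under 1 by definition and the 109 have no such limit, so these medians are not a like comparison. The standard error of a log2 change had a median of 0.0788 among abundant guides and 0.251 among the 133 miRNAs under 10 CPM. The 14 guides that rose took 39.7% of the reads on average, and their mean CPM summed to 344385 early and 449059 late. The 5 that fell took 5.97%, with sums of 67649 and 51821 CPM. The early and late libraries did not overlap in 14 of the 19 and in 105 of all 134 called miRNAs, where being called favours this, and in 115 of all 402 tested (28.6%). All p-values measure the spread between these libraries, which come from 2 experiments.

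**Figure D1:**
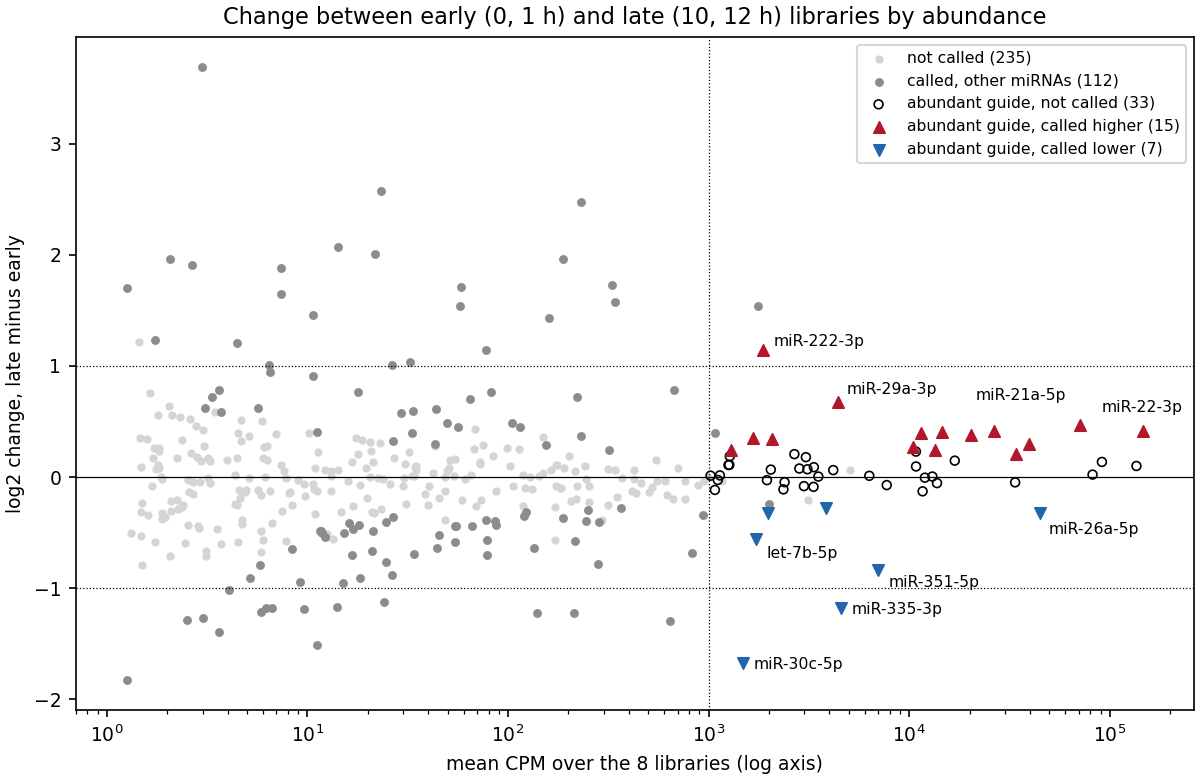
Log2 change from the early (0 and 1 h) to the late (10 and 12 h) libraries against mean CPM (log axis) for the 402 miRNAs tested, with 4 libraries a side. Dotted lines mark 1000 CPM and 1 log2 unit. Most called guides right of 1000 CPM lie within 1 log2 unit of 0, and called miRNAs left of it reach past 3.

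Several of the rises were in guides that growth factors are known to raise. miR-22-3p stood at 134605 and 124942 CPM at 0 h (replicates 1 and 2), 126179 and 116351 at 1 h, 164010 and 170269 at 10 h, then 173634 and 160332 at 12 h. Every late library was above every early one. The means were 125519 ± 7469 and 167061 ± 6002 CPM (SD, n = 4), a log2 change of 0.41 (SE 0.064; adjusted p = 0.000312) and a 1.33-fold rise of the most abundant guide. Its hairpin (chr11:75463716-75463810, GRCm38.p6, plus strand) overlaps an exon of the noncoding Mir22hg and an exon of Tlcd2.

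miR-21a-5p, a repressor of Pdcd4, stood at 57083 and 63926 CPM at 0 h, 59127 and 57589 at 1 h, 86282 and 57118 at 10 h, then 84082 and 101070 at 12 h. The 10 h library of replicate 2 lay at the early level, and the other late libraries lay above all early ones. The log2 change was 0.47 (SE 0.135; adjusted p = 0.0179). Without that library the call was kept (adjusted p = 3.91e-07), and it was lost without 1 h replicate 2 (adjusted p = 0.0625) and with library totals (log2 change 0.31, adjusted p = 0.0654). The hairpin lies on the minus strand (chr11:86584067-86584158) and overlaps an annotated exon of Vmp1.

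miR-31-5p stood at 10515 and 9175 CPM at 0 h, 10004 and 9844 at 1 h, 12373 and 13397 at 10 h, then 13600 and 12497 at 12 h. The sides did not overlap, and the log2 change was 0.39 (SE 0.069; adjusted p = 0.000749). miR-221-3p, which with miR-222-3p represses the cell-cycle inhibitor Cdkn1b, stood at 1645 and 1844 CPM at 0 h, 1686 and 2136 at 1 h, 1951 and 2559 at 10 h, then 2139 and 2638 at 12 h. Replicate 2 was above replicate 1 at every time, so the sides overlapped although both replicates were higher late (log2 change 0.34, SE 0.075; adjusted p = 0.0035). With library totals the change was 0.18 (adjusted p = 0.0871). All 9 measured members of the list of growth-factor-linked guides were higher late, against 16.4% of all miRNAs tested, with a median log2 change of 0.60 against -0.01. The list was drawn up with earlier results of these data known, so the count is no independent evidence of its direction. With library totals the values of all 9 stayed above 0, and miR-21a-5p and miR-221-3p lost their calls. Its low members included miR-132-3p (26.3 to 40.5 CPM, log2 change 0.60, adjusted p = 0.00842) and miR-212-3p (2.70 to 6.23 CPM, 1.21, adjusted p = 0.000312), neighbours induced by the transcription factor Creb in neurons.

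miR-92a-3p, the most abundant guide of the growth-promoting miR-17-92 cluster, stood at 21368 and 23744 CPM at 0 h, 21914 and 23729 at 1 h, 26308 and 30616 at 10 h, then 30912 and 32897 at 12 h. The late libraries were all above the early ones, with a log2 change of 0.41 (SE 0.069; adjusted p = 0.0006). It is cut from Mir92-1 in an exon of Mir17hg (chr14:115044427-115044506) and from Mir92-2 (chrX:52741838-52741928), and reads cannot be assigned to either hairpin. Of 9 tested guides of miR-17-92 and its paralogous clusters, 3 rose and none fell, with a median log2 change of 0.01, and over all miRNAs tested 33.3% were called and 16.4% rose. The others that rose were miR-17-5p (166 to 274 CPM, log2 change 0.72, adjusted p = 0.000186) and miR-20a-5p (86.8 to 122 CPM, 0.48, adjusted p = 0.0179), and miR-93-5p of a paralogous cluster had a change of -0.09 (adjusted p = 0.409). In 10 h replicate 2 miR-20a-5p was at 86.7 CPM, within its early range of 76.8 to 92.3 CPM. The other late libraries had it at 130 to 138 CPM.

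miR-29a-3p, whose family represses collagen and other matrix genes, stood at 3229 and 3758 CPM at 0 h, 3081 and 3633 at 1 h, 5200 and 5370 at 10 h, then 5505 and 5684 at 12 h. The sides were far apart, and the log2 change of 0.67 (SE 0.071; adjusted p = 1.23e-05) was the largest of the 14 rises. Its relatives miR-29b-3p (58.0 to 78.8 CPM, log2 change 0.43, adjusted p = 0.223) and miR-29c-3p (26.2 to 25.6 CPM, -0.06, adjusted p = 0.811) did not pass. In 10 h replicate 2 miR-29b-3p was at 36.2 CPM. The other late libraries, at 89.7 to 96.1 CPM, were above its early range of 48.4 to 74.8 CPM. Its change without 10 h replicate 2 is not given here. miR-125b-5p stood at 11296 and 12781 CPM at 0 h, 12661 and 13047 at 1 h, 16383 and 17887 at 10 h, then 17948 and 13936 at 12 h. Its lowest late library, 12 h replicate 2, was just above its highest early one, and the log2 change was 0.41 (SE 0.090; adjusted p = 0.00342).

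The let-7 guides repress growth genes such as Ras, Myc and Hmga2, and of the 9 measured 2 rose, 1 fell and 6 did not pass, the same share called as over all miRNAs tested (33.3%). let-7i-5p stood at 16812 and 17498 CPM at 0 h, 18448 and 17733 at 1 h, 22129 and 23066 at 10 h, then 23470 and 23203 at 12 h, with the sides well apart (log2 change 0.38, SE 0.064; adjusted p = 0.000543). let-7f-5p stood at 36108 and 35026 CPM at 0 h, 38381 and 32074 at 1 h, 39106 and 48757 at 10 h, then 39336 and 46937 at 12 h. Its late libraries of replicate 1 were barely above the early ones and those of replicate 2 clearly so, and the log2 change was 0.29 (SE 0.089; adjusted p = 0.0222). Within replicate 1 it was 0.08 and within replicate 2 0.48, and the difference between the replicates had an unadjusted p of 0.0051 in the same edgeR model. No such difference passed the adjusted test for any of the 402 miRNAs (0%), and 16 had an unadjusted p under 0.05. The call of let-7f-5p was lost with library totals (0.14, adjusted p = 0.246) and without 0 h or 1 h replicate 2.

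The remaining rises among moderate guides were those of miR-148b-3p, miR-30a-5p and the 3 described next. miR-148b-3p, which shares its seed with miR-148a-3p and miR-152-3p and lies in an intron of Copz1 (chr15:103285125-103285221), went from 1466 ± 174 to 1866 ± 184 CPM (SD, n = 4), with a log2 change of 0.35 (adjusted p = 0.00231, SE 0.073). miR-30a-5p stood at 9481 and 9930 CPM at 0 h, 9659 and 8954 at 1 h, 11564 and 9278 at 10 h, then 12077 and 13070 at 12 h. Again 10 h replicate 2 lay among the early libraries. The log2 change of 0.27 (SE 0.096; adjusted p = 0.045) was the closest to the threshold of the called guides, and it was lost with library totals (0.12), without the block (adjusted p = 0.0526) and without any single library except 10 h replicate 2.

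Of the 19 moderate guides, 3 were called with 4 libraries a side and in none of the 4 fits of 1 late against 1 early time with 2 libraries a side. miR-181a-5p, known for its part in lymphocyte development, stood at 33687 and 30481 CPM at 0 h, 32274 and 30324 at 1 h, 34802 and 39294 at 10 h, then 36360 and 36024 at 12 h. The lowest late library was above the highest early one. The log2 change was 0.21 (95% interval 0.06 to 0.36; adjusted p = 0.0331), and with 2 libraries a side it was 0.14 for 12 h against 0 h, 0.26 for 10 h against 0 h, 0.21 for 12 h against 1 h and 0.24 for 10 h against 1 h (adjusted p = 0.352, 0.386, 0.117 and 0.307). Its guides come from Mir181a-1 (chr1:137966455-137966541), within an exon of a long noncoding RNA gene, and Mir181a-2 (chr2:38852735-38852810), which lies opposite an intron of Nr6a1.

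miR-151-3p stood at 12203 and 12041 CPM at 0 h, 12727 and 12231 at 1 h, 13900 and 15347 at 10 h, then 14255 and 14601 at 12 h. Its early libraries were close together (12300 ± 296 CPM, SD, n = 4) and all below the late ones (14526 ± 618). The log2 change was 0.24 (95% interval 0.10 to 0.38; adjusted p = 0.0119), and the pairs of times gave 0.20 to 0.32 with adjusted p-values of 0.118 to 0.345. miR-130a-3p stood at 1192 and 1224 CPM at 0 h, 1142 and 1157 at 1 h, 1272 and 1529 at 10 h, then 1299 and 1502 at 12 h. The replicate 1 libraries moved less than those of replicate 2, with the sides still apart, and the log2 change was 0.24 (95% interval 0.08 to 0.41; adjusted p = 0.0241). Its pairs gave 0.17 to 0.28 (adjusted p = 0.0551 to 0.424). The hairpin (chr2:84741115-84741178, minus strand) overlaps no other annotated gene.

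None of these 3 calls held with library totals, where the changes were 0.05, 0.08 and 0.09 for miR-181a-5p, miR-151-3p and miR-130a-3p (adjusted p = 0.588, 0.356 and 0.399), against a median of -0.17 for all miRNAs under that scaling. All 3 were lost without 0 h replicate 2 (adjusted p = 0.133, 0.0583 and 0.0709), and miR-130a-3p also without the block (adjusted p = 0.0601).

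The fits with 2 libraries a side called 108 of 414 miRNAs for 12 h against 0 h (26.1%), 36 of 408 for 10 h against 0 h (8.82%), 120 of 407 for 12 h against 1 h (29.5%) and 71 of 404 for 10 h against 1 h (17.6%). They called 15, 1, 15 and 5 of the 19 moderate guides. With the block such a fit has 1 residual degree of freedom, and in 3 of the 4 fits the prior degrees of freedom were infinite, so the spread of a single miRNA did not enter and calls rested on the trend over all miRNAs. Of the 19 guides, 3 were called in none of the 4 fits, 2 in 1, 9 in 2, 4 in 3, and miR-351-5p in all 4. The 4 fits share libraries, so their values are set side by side and not counted as separate evidence. Without the block 5 guides were called in none of the pairs (let-7f-5p and miR-148b-3p joined the 3). In a single fit of all 16 libraries without the block, the 4 pairs called 64, 53, 66 and 48 of 449 miRNAs (14.3%, 11.8%, 14.7% and 10.7%) and left 9 of the 19 uncalled.

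**Figure D2:**
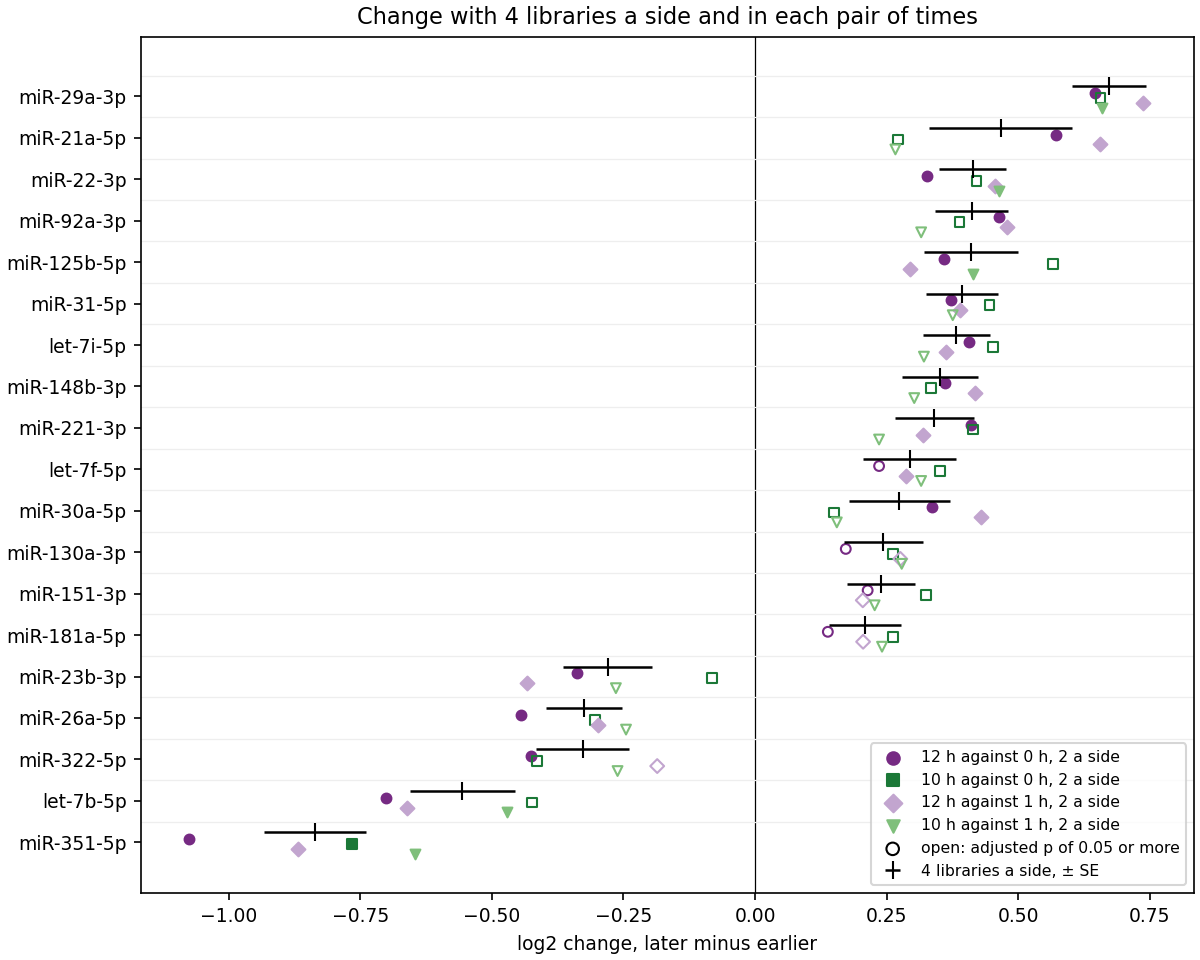
Log2 change of the 19 moderate guides with 4 libraries a side (black, with SE) and in the 4 fits with 2 libraries a side (coloured, open where the adjusted p was 0.05 or more). The values of miR-130a-3p, miR-151-3p and miR-181a-5p from the pairs are all open and lie between 0.14 and 0.32.

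The 5 moderate guides that fell kept their calls with library totals. Under that scaling the median change of all miRNAs was -0.17, so values move down and a fall is not put to the test. miR-351-5p stood at 10492 and 8618 CPM at 0 h, 9132 and 7773 at 1 h, 5368 and 5401 at 10 h, then 5466 and 3924 at 12 h. Every late library was well below the early ones, and the log2 change of -0.84 (SE 0.097; adjusted p = 2.83e-05) was the largest moderate change in either direction. miR-322-5p, from the same X-linked cluster (its hairpin at chrX:53054255-53054349) and the counterpart of human miR-424, is known to slow the cell cycle. It stood at 2696 and 2008 CPM at 0 h, 2350 and 1728 at 1 h, 2178 and 1298 at 10 h, then 2207 and 1431 at 12 h. Replicate 1 was above replicate 2 at every time, so the sides overlapped while each replicate was lower late. The log2 change was -0.33 (SE 0.087; adjusted p = 0.0119), and without the replicate block it was -0.30 (adjusted p = 0.247).

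miR-26a-5p, a repressor of the chromatin enzyme gene Ezh2, stood at 55248 and 49041 CPM at 0 h, 51086 and 45291 at 1 h, 41175 and 40014 at 10 h, then 44825 and 34384 at 12 h. The highest late library was just below the lowest early one (log2 change -0.32, SE 0.072; adjusted p = 0.00369). It is made from Mir26a-1 in an intron of Ctdspl (chr9:119031796-119031885) and Mir26a-2 in an annotated exon of Ctdsp2 (chr10:126995530-126995613). let-7b-5p stood at 1927 and 2183 CPM at 0 h, 1843 and 2257 at 1 h, 1188 and 1824 at 10 h, then 1298 and 1291 at 12 h. The 10 h library of replicate 2 was close below the early range and the other late libraries far below it (log2 change -0.56, SE 0.100; adjusted p = 0.000867). miR-23b-3p stood at 3824 and 4264 CPM at 0 h, 4132 and 4705 at 1 h, 3106 and 4339 at 10 h, then 3070 and 3498 at 12 h. Here 10 h replicate 2 lay within the early range. The log2 change of -0.28 (SE 0.085; adjusted p = 0.0221) was lost without the block (adjusted p = 0.0979), without 1 h replicate 1 (-0.21, adjusted p = 0.145) and without 10 h replicate 1 (-0.24, adjusted p = 0.115), either 12 h library (-0.22 and -0.21) or 1 h replicate 2 (-0.27).

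**Figure D3:**
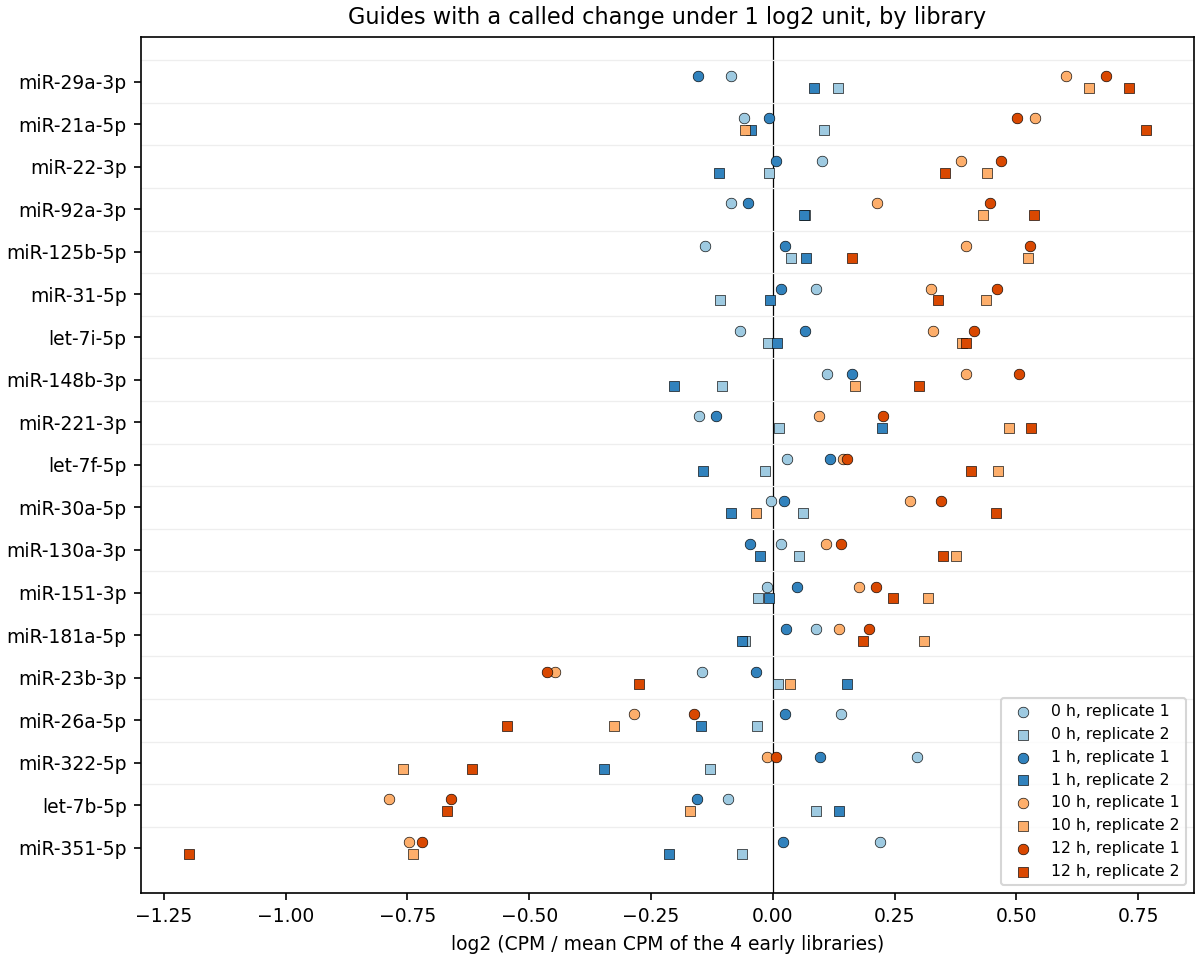
Log2 ratio of each library's CPM to the mean of the 4 early libraries for the 19 moderate guides (blue: 0 and 1 h; orange: 10 and 12 h; circles: replicate 1; squares: replicate 2). The sides do not overlap in 14 of the 19, and in miR-21a-5p, miR-30a-5p and miR-23b-3p the square of 10 h lies among the early libraries.

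Without 10 h replicate 2, all 19 moderate guides kept their calls, with log2 changes of 0.65 for miR-21a-5p, 0.40 for miR-30a-5p, -0.34 for miR-23b-3p and -0.65 for let-7b-5p. Then miR-143-3p, an abundant mesenchymal guide, passed as well (log2 change 0.23, adjusted p = 0.00571, against 0.10 and 0.505 with all libraries), as did let-7c-5p (-0.20, adjusted p = 0.0262, against -0.07 and 0.670). The number of moderate rises went from 14 to 9 without 0 h replicate 2 and to 9 without 1 h replicate 2. Library totals move values down, so they put rises to the test and not falls. With library totals 7 of the 14 rises and all 5 falls kept their calls, and the split of all calls was 45 higher and 119 lower. The rises that kept them were miR-22-3p (0.26), miR-92a-3p (0.25), let-7i-5p (0.23), miR-125b-5p (0.26), miR-31-5p (0.24), miR-29a-3p (0.52) and miR-148b-3p (0.20).

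Shares within a seed family do not depend on the scaling of libraries, and they were followed for the 10 families with at least 2 abundant guides, which held 30 guides. Families were formed from guides with a RefSeq sequence, so miR-30d-5p, miR-30b-5p and miR-23b-3p entered none. Differences between sides were tested with an exact two-sided permutation test of 4 against 4 libraries, whose smallest possible p is 0.0286. Of 27 such relations 11 reached it, and after adjustment over the 27 these exact permutation p-values were 0.0701. The test does not use the pairing of the replicates, and with its smallest p adjusted over 27 relations the design has little room to pass 0.05, so the shares are given as descriptions. The families let-7, miR-125 and miR-30 each held guides called in both directions.

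In the miR-125 family miR-351-5p took 24.04 ± 2.97% of the family's reads early and 12.8 ± 0.639% late (SD, n = 4), and miR-125b-5p took 33.2 ± 2.27% and 42.1 ± 0.761%. The share of miR-125a-5p was 42.7 ± 0.991% and 45.1 ± 0.634%. Family reads were 3.92% to 3.99% of a library early and 3.02% to 4.25% late. Within the let-7 family the share of let-7b-5p was 2.47 ± 0.326% early and 1.42 ± 0.155% late, with no overlap, and that of let-7f-5p was 42.4 ± 1.60% and 44.2 ± 1.58%. let-7 reads cannot be placed with certainty, since its members are nearly identical and the rule for reads matching several miRNAs is not given in the sources used here. The same holds for miR-23a/b and the miR-30 guides.

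In the family of miR-92a-3p and miR-25-3p the latter fell as a share from 21.5 ± 0.258% to 17.3 ± 0.598% of reads, with its own level at a log2 change of 0.01 (adjusted p = 0.947). miR-222-3p took 38.9 ± 1.37% of the miR-221/222 reads early and 52.4 ± 2.71% late, and both guides rose. Their hairpins are neighbours on the X chromosome (chrX:19146294-19146388 for miR-221 and chrX:19146893-19146971 for miR-222). Of the reads of miR-30a-5p, miR-30c-5p and miR-30e-5p alone, miR-30c-5p took 15.9 ± 0.791% early and 4.97 ± 0.826% late. These are not shares of the whole miR-30 family, since miR-30d-5p, about as abundant as miR-30a-5p, and miR-30b-5p are not in the sum. miR-26b-5p took 5.77 ± 0.159% of miR-26 reads early and 6.78 ± 0.658% late, and its own log2 change was -0.08 (adjusted p = 0.481).

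**Figure D4:**
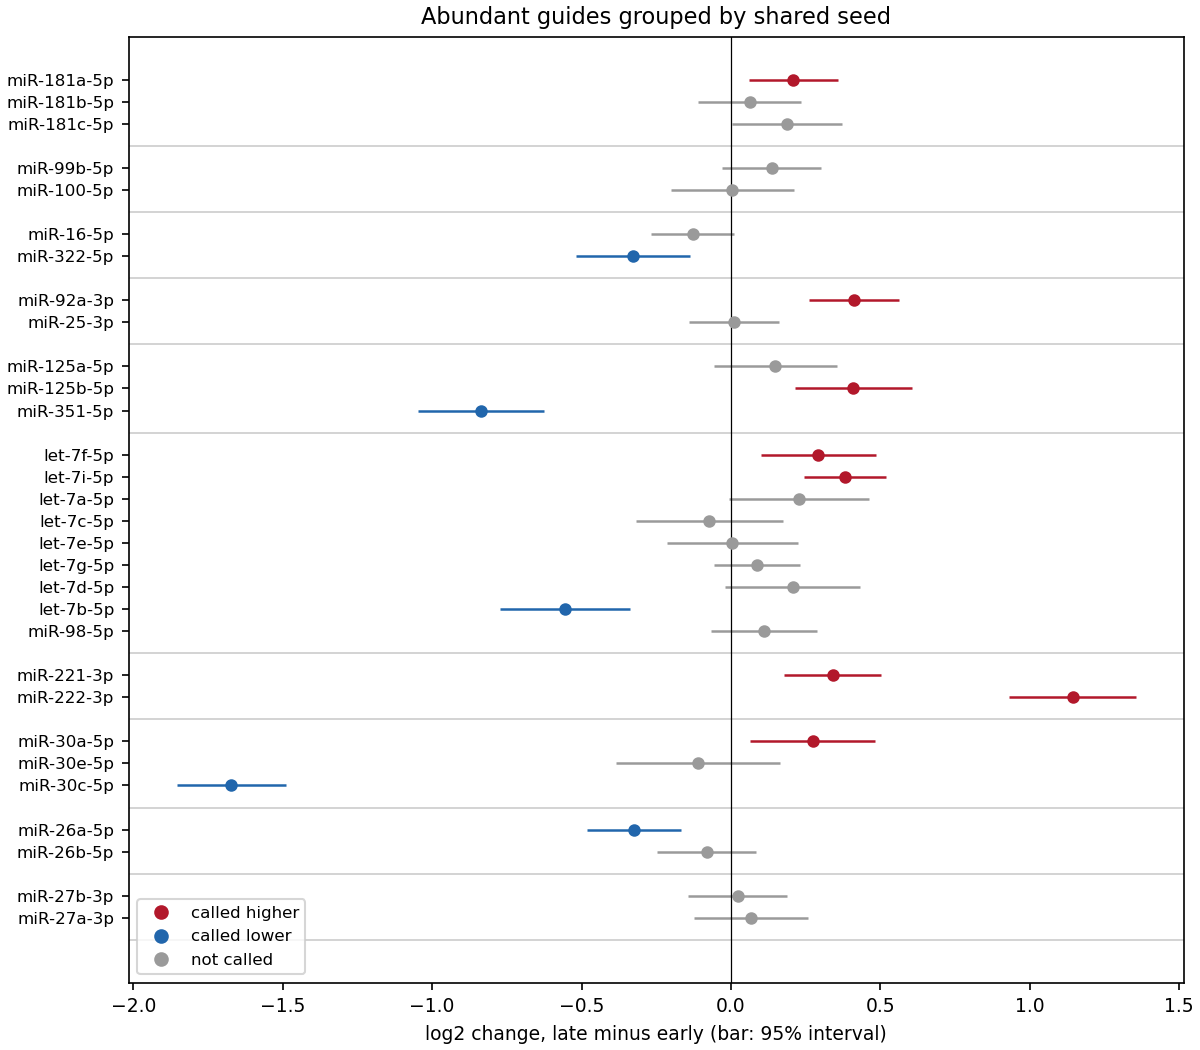
Log2 change with its 95% interval for the 30 abundant guides with a RefSeq sequence that share a seed with another such guide, in blocks of 1 seed each (miR-30d-5p and miR-23b-3p, without a sequence, are not drawn) (red: called higher; blue: called lower; grey: not called). The blocks of let-7, miR-125 and miR-30 hold red and blue guides side by side.

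**Figure D5:**
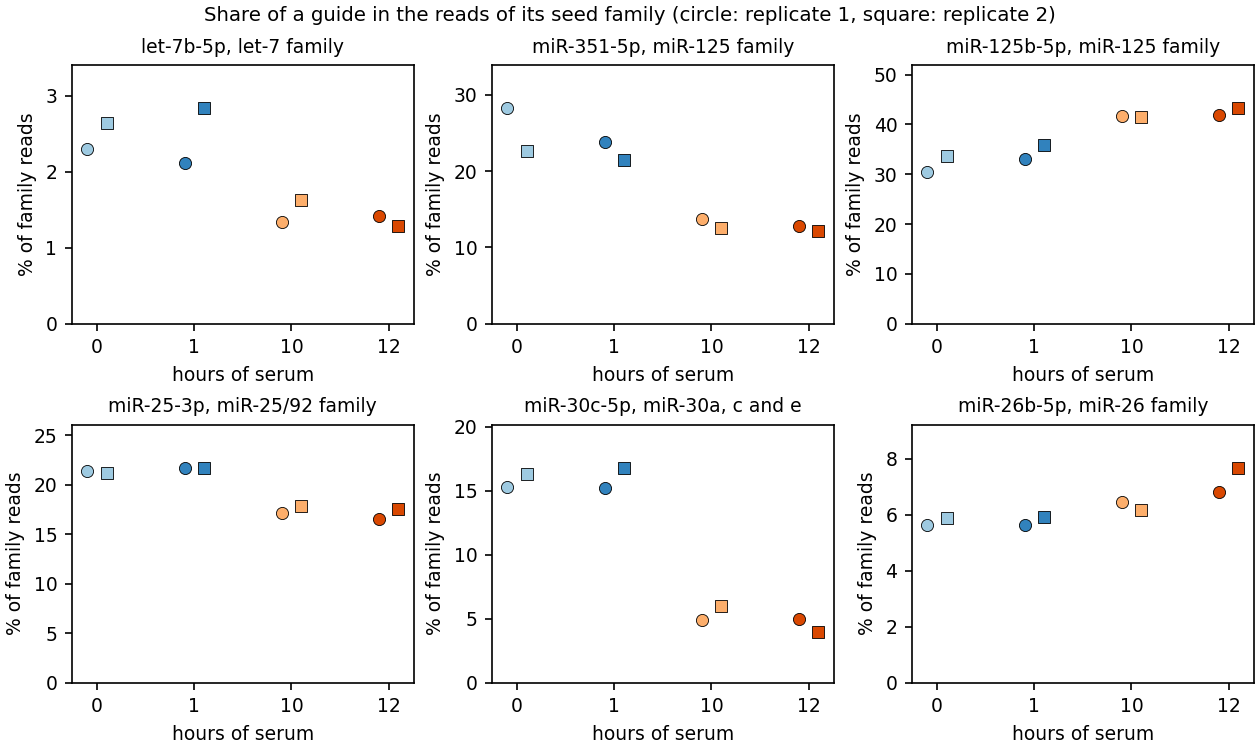
Percent of the reads of a seed family (for miR-30c-5p, of miR-30a, miR-30c and miR-30e) held by 1 of its guides, in each library by hours of serum (circles: replicate 1; squares: replicate 2; each axis starts at 0). The early and late libraries do not overlap in any of the 6 panels, with miR-351-5p near 24% early and 13% late. The panels were picked with the shares in view, all from relations without overlap. Of all 27 relations followed, 11 were of that kind.

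Of the 22 called guides, 3 changed by 1 log2 unit or more. miR-30c-5p went from 2252 ± 103 to 709 ± 69.9 CPM (SD, n = 4), a log2 change of -1.67 (SE 0.084; adjusted p = 1.91e-08), and miR-30b-5p, of the same family, from 910 to 372 CPM (-1.30, adjusted p = 2.47e-07). miR-335-3p, hosted by an intron of imprinted Mest (chr6:30741299-30741396), went from 6358 ± 513 to 2820 ± 534 CPM (-1.18, SE 0.103; adjusted p = 2.4e-06). miR-222-3p went from 1161 ± 101 to 2570 ± 448 CPM (1.14, SE 0.097; adjusted p = 1.93e-06). Among all miRNAs of at least 10 CPM the largest rises were those of miR-455-3p (6.76 to 39.7 CPM, log2 change 2.57), miR-92a-1-5p (70.4 to 390.1 CPM, 2.48), miR-29b-1-5p (5.45 to 23.0 CPM, 2.07), miR-455-5p (8.60 to 34.7 CPM, 2.01) and miR-155-5p (76.7 to 300.96 CPM, 1.96). Besides miR-30c-5p and miR-30b-5p, the largest falls were those of miR-26a-2-3p (16.5 to 5.77 CPM, -1.52), miR-193a-3p (196 to 82.2 CPM, -1.23) and miR-129-2-3p (293 to 134 CPM, -1.22). miR-26a-2-3p was at 21.7 and 23.9 CPM at 0 h and already at 9.60 and 10.8 CPM at 1 h, so the early side was not uniform for it.

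The 33 abundant guides that did not pass had log2 changes between -0.13 and 0.23, and all 33 had 95% intervals within 0.5 log2 units of 0. They included 4 of the 10 most abundant guides. miR-143-3p stood at 124642 and 133728 CPM at 0 h, 141106 and 124296 at 1 h, 153898 and 108821 at 10 h, then 145425 and 154283 at 12 h, with 10 h replicate 2 below every other library. miR-99b-5p had a log2 change of 0.14 (adjusted p = 0.197), miR-27b-3p of 0.02 (adjusted p = 0.866) and miR-182-5p of -0.05 (adjusted p = 0.676). With library totals the directions turned for miR-143-3p (-0.06), for miR-99b-5p (-0.02) and for miR-27b-3p (-0.13). miR-16-5p, which restrains cyclins with its family, was at 11834 to 12498 CPM early and 10615 to 11585 CPM late, so its sides did not overlap, with a log2 change of -0.13 (adjusted p = 0.151; with library totals -0.28, adjusted p = 0.00753). Just inside the threshold among abundant guides were miR-130a-3p, miR-181a-5p and miR-30a-5p (adjusted p = 0.0241, 0.0331 and 0.045), and just outside it miR-181c-5p, let-7a-5p and miR-186-5p (0.110, 0.124 and 0.129). At the abundance limit miR-744-5p (1075 CPM) and miR-501-3p (1023 CPM) were inside, and miR-532-5p (998 CPM) and miR-152-3p (953 CPM) outside.

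The other lists are small, and their counts of calls stand beside 33.3% of all miRNAs tested. Of the 6 tested guides with the miR-15/16 seed 1 fell (miR-322-5p) and 5 did not pass. Of 5 miR-23/27/24 guides 1 fell and 4 did not pass, and of 5 miR-30 guides 1 rose and 2 fell. Of 4 miR-34 guides, which act downstream of p53, miR-34a-5p fell (162 to 106 CPM, log2 change -0.64, adjusted p = 0.00153). In the pair of miR-143-3p and miR-145a-5p the latter fell (1045 to 826 CPM, -0.34, adjusted p = 0.0042), and of 4 guides of the miR-199a and miR-214-3p list miR-214-3p fell (1017 to 635 CPM, -0.68). Of the 7 guides of miR-99, miR-100, miR-125 and miR-10, miR-125b-5p rose and 6 did not pass. miR-103-3p, miR-107-3p, miR-191-5p and miR-425-5p did not pass. Of miR-193a-3p, miR-193b-3p and miR-365-3p the first fell (above), the last rose (log2 change 0.25, adjusted p = 0.0498) and miR-193b-3p did not pass (-0.13, adjusted p = 0.496). In the lists of miR-181, miR-148 with miR-152 and miR-130 with miR-301, the guide described above was the 1 that rose, of 4, 3 and 4 tested, and of the 2 miR-26 guides miR-26a-5p fell.

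Each of the 22 called guides had a tested opposite arm, the most abundant where there were several. In 17 the arms had the same sign of change, 10 opposite arms were called (33.3% of all miRNAs tested were), and 8 of those moved the same way as the guide. The share of same signs over all tested pairs of arms was not counted. The opposite arms of the 3 guides uncalled in the pairs were miR-181a-1-3p (137 to 127 CPM, log2 change -0.11, adjusted p = 0.490), miR-151-5p (4935 to 5160 CPM, 0.06, adjusted p = 0.619) and miR-130a-5p (8.66 to 3.80 CPM, -1.18, adjusted p = 0.00697). Arms of 1 hairpin moved by very different amounts in several cases. miR-92a-1-5p rose by 2.48 against 0.41 for miR-92a-3p, miR-221-5p by 1.58 (172 to 514 CPM) against 0.34, and miR-125b-1-3p by 1.54 (905 to 2632 CPM) against 0.41. miR-30c-5p and miR-30c-2-3p were called in opposite directions, the latter at 49.4 and 79.8 CPM (0.71, adjusted p = 0.000188). The passenger of the other miR-30c hairpin, miR-30c-1-3p, was at 30.4 to 36.9 CPM early and 23.9 to 30.7 CPM late. That of the other miR-125b hairpin, miR-125b-2-3p, was at 44.4 to 53.6 CPM early and 49.5 to 54.2 CPM late. Since miR-92a-3p, miR-125b-5p and miR-30c-5p each have 2 hairpins and these arms have 1, the arms do not measure the same set of precursors. miR-335-5p fell by 0.25 (adjusted p = 0.045) against 1.18 for miR-335-3p.

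The deposited counts separate reads equal to the reference sequence from trimmed reads and from reads extended at an end, and the total used above adds them. Reference reads alone kept 14 of the 19 moderate calls. In miR-21a-5p the share of reference reads was 48.5% early and 35.7% late, and that of reads with extra 3′ bases matching the hairpin was 36.4% and 47.3%. With reference reads alone its log2 change was 0.08 (adjusted p = 0.666). In miR-222-3p the reference held 4.53% of reads early and 2.08% late, and the change of reference reads was 0.06 (adjusted p = 0.726) against 1.14 for all reads. In miR-29a-3p the share of trimmed reads was 42.0% early and 26.6% late, and the reference reads had a change of 1.09. In miR-30a-5p, with 4.92% and 3.76% of reads equal to the reference, the direction turned (-0.05, adjusted p = 0.747). The changes of miR-148b-3p (0.12), miR-130a-3p (0.06) and miR-23b-3p (-0.04) were also uncalled with reference reads. miR-181a-5p kept its call (0.24, adjusted p = 0.0278).

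The 8 libraries of 2 to 8 h did not enter the comparison, and the levels of some moderate guides are given on the same scale. At 4 h 17 of the 19 moderate guides had moved toward their late means, and the share over all miRNAs was not counted. miR-30a-5p was at 9535, 8525, 9344 and 10630 CPM at 2, 4, 6 and 8 h (early and late means 9506 and 11497). miR-21a-5p was at 65244, 58862, 67405 and 79103 CPM (59431 and 82138), so both were below their early means at 4 h. The mean of miR-22-3p was 129119 CPM at 2 h, 150747 at 4 h, 155077 at 6 h and 155437 at 8 h (early and late means 125519 and 167061). miR-351-5p was at 8589, 7639, 7067 and 5945 CPM at these times (9004 and 5040), and miR-29a-3p at 3482, 4375, 4621 and 4950 CPM (3425 and 5440). let-7f-5p was at 46087, 38159, 37387 and 41148 CPM, so its 2 h mean was above its late mean of 43534. The means of miR-181a-5p were 34354, 32952, 34946 and 34298 CPM (31692 and 36620), those of miR-151-3p 13247, 13329, 13961 and 13968 CPM (12300 and 14526) and those of miR-130a-3p 1079, 1216, 1244 and 1299 CPM (1179 and 1400.3).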

How the data were processed

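Counts of small RNA reads per mature miRNA and read class were used as deposited by the authors, raw and unscaled per the file headers and the values. The submitters' processing notes name CASAVA 1.8.0. Which aligner, miRBase release, build and multi-match rule were used is not given in the sources used here. Per mature miRNA 8 classes were summed (reference, trimmed, 3′ and 5′ extended, each templated or not). The entries by added base repeat these reads (9.55% to 10.5% of the sum) and were left out, as was 1 duplicate entry. The classes' meanings were read from their names.

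The 8 libraries (groups from the sample titles) were fitted with edgeR 4.0.16 (glmQLFit, glmQLFTest; R 4.3.3, limma 3.58.1), TMM scaling, filterByExpr with a minimum count of 10 (402 miRNAs kept, 765 left out), a late term and a replicate block, with Benjamini-Hochberg adjustment at 0.05. The residual degrees of freedom were 5 and the prior ones 7.26. CPM values use TMM-scaled totals. The standard error is the change over the root of F.

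Same-numbered libraries deviated together (correlations 0.229 to 0.587 over 269 miRNAs between all pairs of times), so the numbers pair the libraries. Each number also has its own code in the column headers. What the code stands for was not established, and it cannot be told apart from the experiment. Alternatives were other scalings, filters, tests (DESeq2 1.42.0, limma-voom), no block, all 16 libraries, 0 h alone, reference reads, single replicates and single libraries left out. Named miRNAs were the 3 guides uncalled in the pairs with their opposite arms, the 8 most abundant other moderate guides, the 5 largest rises and falls at 10 CPM or more, the 10 most abundant guides and leading list members. Beyond the rule, the other moderate guides and the members of divided seed families were named after their values were seen. Members and lists were chosen with earlier results of these data known, and the seed-family shares and read classes with the results in view. Scripts were tested on simulated data. Hairpin positions come from RefSeq, and overlaps from GENCODE M21, both on GRCm38.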

Additional observations from a re-analysis of the deposited data

Results flagged for a closer look

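The early and late sides of the 53 named miRNAs were examined, 106 sides of 4 libraries. In 4, a library's gap to the nearest other exceeded Dixon's 95% critical value as a share of the range. Chance alone gives about 1 in 20. Other miRNAs given with values above were not screened, among them miR-29b-3p and miR-20a-5p. In 10 h replicate 2 these were at 36.2 and 86.7 CPM, with the other late libraries at 89.7 to 96.1 and 130 to 138 CPM. miR-351-5p was at 3924 CPM in 12 h replicate 2, with the other late libraries at 5368 to 5466 CPM. miR-92a-1-5p was at 91.3 CPM in 0 h replicate 1, with the other early libraries at 62.3 to 65.2 CPM. miR-29b-1-5p was at 2.67 CPM in 1 h replicate 1, against 6.13 to 6.52 CPM in the other early libraries. miR-30b-5p was at 941 CPM in 0 h replicate 1, against 899 to 901 CPM in the others.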

How the results depend on the processing

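With library totals all miRNAs had a median change of -0.17, and 164 miRNAs were called, 119 of them lower, with 8 moderate guides higher and 12 lower. Without the replicate block 111 were called and 3 moderate guides fell (5 with it). The fit of all 16 libraries without the block also had 3 falls. Against 0 h alone 89 were called, 41 of them lower, with 12 moderate guides, 8 of them higher. Replicate 1 alone called 106, and replicate 2 alone called 50 (24 higher and 26 lower) with 4 moderate guides, 3 higher and 1 lower. At a minimum of 2000 CPM 3 moderate guides fell. The count of guides uncalled in the pairs was 5 without the block, 9 in 1 fit of all 16 libraries without the block, and 4 when set against 12 h versus 0 h alone. Leaving out 1 library gave 108 to 141 calls, 55 to 76 higher and 49 to 65 lower, and 13 to 22 moderate guides, 9 to 16 higher and 4 to 6 lower. The interaction count of 0 was 0 with each scaling tried.

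Over 53 named miRNAs, 1071 of 1214 alternative values kept their direction and side of the threshold, 100 lost a call, 11 gained one and 32 turned. Those that turned, all but miR-30a-5p uncalled to begin with, are given by setting. With library totals miR-143-3p was at -0.0577, miR-99b-5p at -0.0179, miR-27b-3p at -0.13, miR-25-3p at -0.15, miR-125a-5p at -0.00448 and miR-151-5p at -0.0929. With reference reads miR-30a-5p was at -0.0516, miR-27b-3p at -0.27, miR-182-5p at 0.0767, miR-26b-5p at 0.0802, miR-25-3p at -0.00552 and miR-151-5p at -0.00205. In replicate 1 alone let-7a-5p was at -0.019 and miR-25-3p at -0.0481. In replicate 2 alone miR-143-3p was at -0.00249, miR-27b-3p at -0.0757, let-7c-5p at 0.10 and miR-151-5p at -0.0422. At a mean of at least 10 CPM miR-27b-3p was at -0.00289 and miR-25-3p at -0.0141. With 16 libraries and the block miR-25-3p was at -0.00427. With 16 libraries and no block miR-25-3p was at -0.000782. Against 0 h alone miR-182-5p was at 0.0122. Fits that left out 1 library ranged from -1.07e-05 to 0.12 for miR-27b-3p, -0.0942 to 0.0236 for miR-182-5p, -0.20 to 0.0197 for let-7c-5p, -0.0236 to 0.0809 for miR-25-3p and -0.18 to 0.0263 for miR-30e-5p. The cause was not tested.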
